A study of Mus musculus with 6 samples.

Results

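The SLC25 mitochondrial carriers were examined in triceps muscle of male SAMP-10 mice, a strain with accelerated aging. The family was taken as the genes whose platform symbol is *Slc25a* and a number, without the acylcarnitine carrier *Slc25a20*, with 1 probe set a gene. This gave 45 of the 19505 genes with a symbol on the array, each represented by a single probe set. The u40Hz-stimulation group (n = 3, mice 4, 10 and 11) received continuous 40 Hz vibration for 5 weeks, and the control group (n = 3, mice 1, 6 and 8) received none. All 6 mice were SAMP-10, and their age at sampling is not in the sample labels. One Affymetrix Mouse Clariom S array was hybridized per mouse, and every value below is a log2 signal of 1 probe set, so that a difference of 1 is a 2-fold difference. A log2 difference is the mean of the u40Hz-stimulation group minus that of the control group, and an unadjusted p is limma's, before correction over all probe sets. Signals of different probe sets are not set against each other, because probes differ in how strongly they bind.

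Carriers of this family sit in the inner mitochondrial membrane, for the larger part, and exchange metabolites between the cytosol and the matrix. In muscle they bring ADP and phosphate in for ATP synthesis, let ATP out, and run the malate-aspartate shuttle that carries the electrons of cytosolic NADH into the matrix. In fat cells the citrate carrier also supplies the carbon for fatty acid synthesis, and in brown fat the uncoupling protein UCP1, a relative under another symbol, turns the proton gradient into heat.

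The sequences upstream of 5 members are shown, those of the 4 members with an unadjusted p under 0.05 and that of *Slc25a1*, the member with the widest range over the mice. Each is the 250 bases before an annotated start in RefSeq (GRCm38.p6), on the strand of the gene, with motif matches in capitals. The regions are chr2:32424067-32424316 (minus strand) for *Slc25a25*, chrX:48623198-48623447 (plus strand) for *Slc25a14* and chr3:109080249-109080498 (plus strand) for *Slc25a54*. They are chr17:57059864-57060113 (minus strand) for *Slc25a23* and chr16:17928220-17928469 (minus strand) for *Slc25a1*. Where a gene has several starts, the window with the most matches is given.
Slc25a25: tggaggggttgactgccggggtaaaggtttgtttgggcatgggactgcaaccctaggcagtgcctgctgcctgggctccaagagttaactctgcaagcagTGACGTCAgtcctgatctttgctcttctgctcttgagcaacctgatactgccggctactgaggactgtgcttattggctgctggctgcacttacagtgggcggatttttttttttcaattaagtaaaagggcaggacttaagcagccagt
Slc25a14: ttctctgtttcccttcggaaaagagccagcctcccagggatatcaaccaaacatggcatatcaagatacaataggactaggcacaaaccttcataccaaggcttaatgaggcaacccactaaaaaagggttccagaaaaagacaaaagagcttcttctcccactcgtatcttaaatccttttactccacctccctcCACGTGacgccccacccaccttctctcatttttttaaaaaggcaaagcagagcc
Slc25a54: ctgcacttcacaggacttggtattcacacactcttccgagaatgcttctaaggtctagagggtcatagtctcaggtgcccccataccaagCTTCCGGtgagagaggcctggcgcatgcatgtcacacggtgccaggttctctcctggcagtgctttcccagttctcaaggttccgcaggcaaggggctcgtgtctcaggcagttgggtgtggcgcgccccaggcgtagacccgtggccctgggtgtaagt
Slc25a23: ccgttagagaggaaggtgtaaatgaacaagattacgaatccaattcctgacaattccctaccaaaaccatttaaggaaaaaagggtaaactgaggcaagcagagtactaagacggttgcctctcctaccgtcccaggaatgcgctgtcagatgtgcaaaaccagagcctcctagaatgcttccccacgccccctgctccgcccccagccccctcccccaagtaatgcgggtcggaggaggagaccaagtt
Slc25a1: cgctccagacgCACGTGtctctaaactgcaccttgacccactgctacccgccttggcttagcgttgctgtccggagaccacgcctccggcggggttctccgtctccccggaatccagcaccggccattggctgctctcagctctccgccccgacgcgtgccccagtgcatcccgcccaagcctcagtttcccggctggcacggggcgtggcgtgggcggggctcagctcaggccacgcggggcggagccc

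Both strands were searched for 5 motifs, which do not overlap each other in these windows. *Slc25a25* holds a cAMP response element (TGACGTCA) that begins 150 bases before the start, a motif chosen after the values were seen. *Slc25a14* and *Slc25a1* each hold the E-box CACGTG, the motif bound by BMAL1-CLOCK, at 54 and 239 bases before the start, and *Slc25a54* holds a GABP element (CCGGAAG, on the opposite strand) at 160 bases. *Slc25a23* had no match. Of the 45 members, 35 had a sequence in the table, with 45 windows. Of those windows 2 (4.44%) held a cAMP response element, against 1.55% of all 32851 windows. These 2 include the window of *Slc25a25*, so this share is not a result about the family. An E-box was in 8 windows of 7 members (17.8% against 6.02%), and a GABP element in 5 windows (11.1% against 6.91%). The NRF-1 element was in 4.44% against 3.74%, and the ERR element (TNAAGGTCA) in none of the members' windows against 1.14%. The shares were not tested. A match describes the letters of the window and no binding was measured.

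The muscle label was borne out by its markers, with *Acta1* at the top of the scale in every mouse and the mean of 6 muscle genes between 18.35 and 18.51 in the u40Hz-stimulation group and between 18.36 and 18.70 in the control group. No probe set of 22206 passed an adjusted p under 0.05 in limma, and 1556 had an unadjusted p under 0.05. Fat cell markers differed between the mice. Of 10 measured adipocyte markers 7 were highest in u40Hz mouse 4, where their list averaged 12.83, against 8.65 and 8.81 in u40Hz mice 10 and 11 and 8.14 to 9.54 in the control mice. Of 6 brown adipocyte markers 4 were highest in that mouse, among them *Ucp1* at 15.62, against 2.61 and 3.91 in the other stimulated mice and 3.44 to 4.16 in the control mice. The 12 slow fibre markers averaged 9.56, 11.66 and 12.13 in u40Hz mice 4, 10 and 11, against 12.77, 7.60 and 9.165 in control mice 1, 6 and 8. In whole muscle, fewer cells of a type and less RNA per cell cannot be told apart.

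No family member passed the adjusted threshold in limma, and the directions were mixed. Of 45 members 25 averaged higher under stimulation and 20 lower, with a median log2 difference of 0.02, beside 0.01 over all probe sets, and 51.3% of all probe sets had a higher mean. The log2 differences ran from -1.30 (*Slc25a25*) to 2.91 (*Slc25a1*). Of the 45, 4 had an unadjusted p under 0.05 (8.89%), where 7.01% of all probe sets did. They were *Slc25a23*, with a higher mean (3.86% of all probe sets are called in this direction), and *Slc25a25*, *Slc25a14* and *Slc25a54*, with a lower mean (3.15%). The groups did not overlap for 3 members (6.67%), beside 12.4% of all probe sets, 1 of them higher (6.4% of all probe sets) and 2 lower (6.05%). The first share is near the background and the other is below it, so neither is a result about the family. Without u40Hz mouse 10 there were 9 members with an unadjusted p under 0.05 (*Slc25a25*, *Slc25a14*, *Slc25a23*, *Slc25a1*, *Slc25a22*, *Slc25a35*, *Slc25a36*, *Slc25a39* and *Slc25a42*), where 1838 of 22206 probe sets had one. Without control mouse 8 there were 2 members and 1085 probe sets. The mean signal of 14 members lay below that of the median probe set. No detection p-values were used here.

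**Figure D1:**
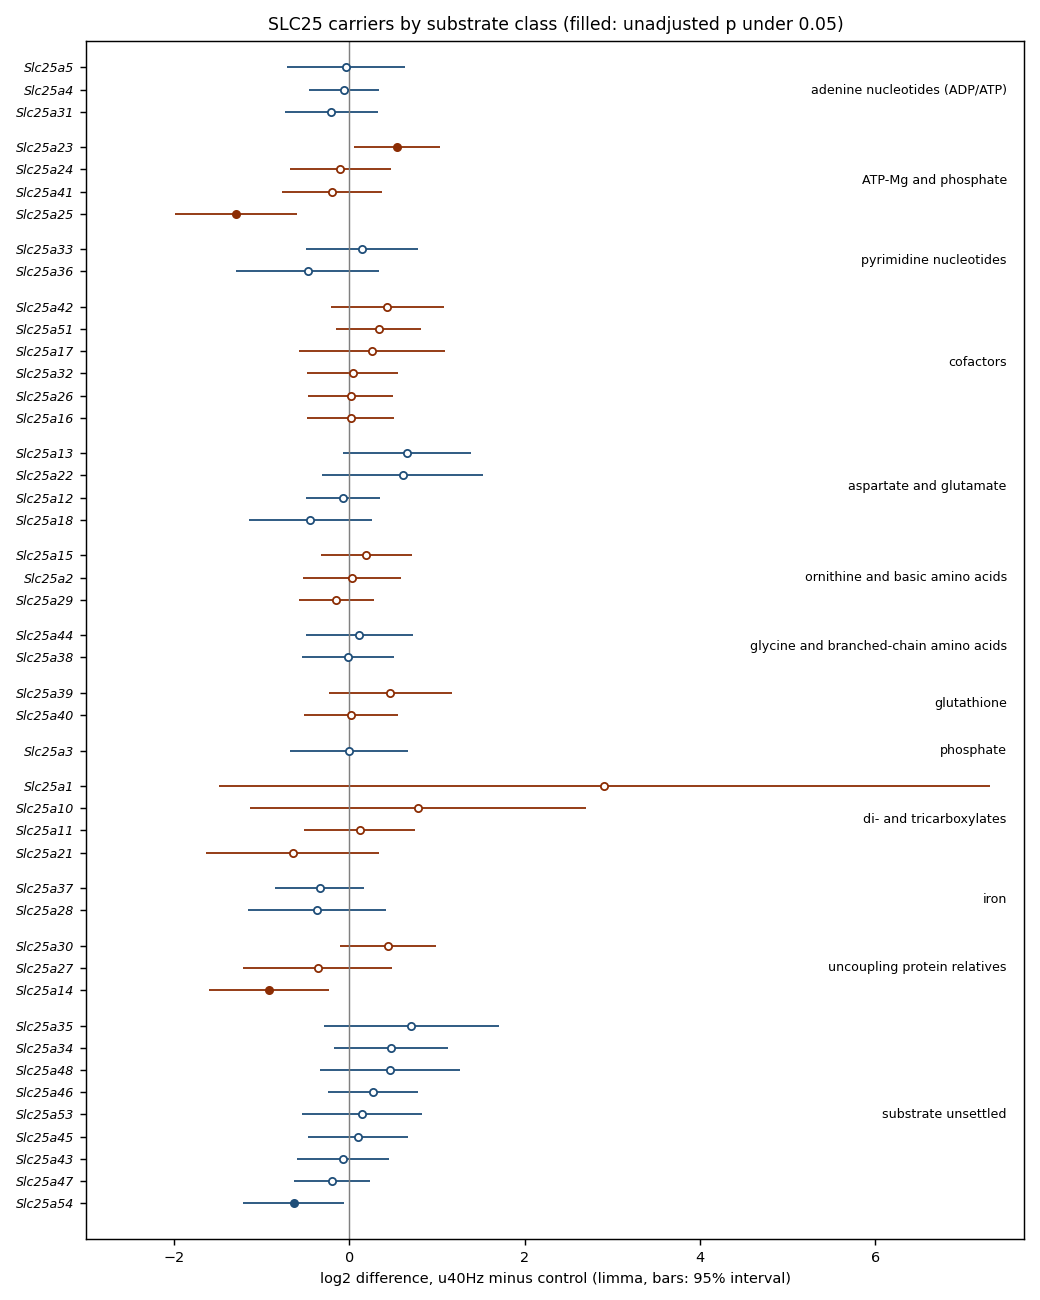
Log2 difference (u40Hz minus control, x axis) of each of the 45 SLC25 members (rows, grouped by substrate class), with 95% intervals from limma. Filled points have an unadjusted p under 0.05, and the interval of *Slc25a1* runs from -1.49 to 7.31.

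There were 4 carriers that exchange ATP-Mg for phosphate, and so set the total of adenine nucleotides in the matrix. Under stimulation 1 averaged higher and 3 lower. Of the 4, 2 had an unadjusted p under 0.05, in opposite directions, where 7.01% of all probe sets had one. The classes were drawn with earlier results known, so this count is not a result about the class. *Slc25a25*, a calcium-regulated member that mice need for full exercise endurance, had log2 signals of 7.71, 7.89 and 8.64 in u40Hz mice 4, 10 and 11, against 9.41, 8.96 and 9.76 in control mice 1, 6 and 8. All 3 stimulated mice lay below all 3 control mice. The mean was 8.08 ± 0.49 in the u40Hz-stimulation group and 9.38 ± 0.40 in the control group (SD, n = 3 each, two-sided exact permutation test, p = 0.1, as small as 3 mice against 3 can give). This was a log2 difference of -1.30 (SE 0.30, 95% interval -1.99 to -0.60), where limma gave unadjusted p = 0.00242, adjusted p = 0.635. *Slc25a25* had the smallest p of the family, and its difference lay within -1.58 and -1.105 whichever mouse was dropped, and all 6 fits had an unadjusted p under 0.05.

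*Slc25a23*, another calcium-regulated ATP-Mg carrier, ran the other way, with 7.94, 7.46 and 7.67 in u40Hz mice 4, 10 and 11, against 6.92, 7.39 and 7.13 in control mice 1, 6 and 8. The groups did not overlap, but u40Hz mouse 10 and control mouse 6 were only a little apart. This gave a log2 difference of 0.54 (SE 0.22, unadjusted p = 0.0347, adjusted p = 0.711 from limma). The unadjusted p was above 0.05 when any of 4 mice was left out, with log2 differences of 0.42 without u40Hz mouse 4, 0.55 without u40Hz mouse 11, 0.43 without control mouse 1 and 0.54 without control mouse 8. With the mean of the adipocyte markers as a covariate it was 0.44 (unadjusted p = 0.0948). The other 2 carriers of the class overlapped between the groups, with log2 differences of -0.10 for *Slc25a24* and -0.20 for *Slc25a41*, which lacks the calcium-binding part. *Slc25a41* and *Slc25a23* lie next to each other on chromosome 17, 1 of 4 pairs of neighbouring members. The pair *Slc25a29* and *Slc25a47* on chromosome 12 had log2 differences of -0.15 and -0.19, and *Slc25a43* and *Slc25a5* on chromosome X had -0.08 and -0.04.

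*Slc25a54*, named as a relative of *Slc25a24* in the RefSeq synonyms and its neighbour on chromosome 3, had 5.25, 4.83 and 5.35 in u40Hz mice 4, 10 and 11, against 6.17, 5.76 and 5.41 in control mice 1, 6 and 8. The groups did not overlap, with u40Hz mouse 11 and control mouse 8 nearly level. The groups differed by -0.64 (SE 0.25, unadjusted p = 0.0342, adjusted p = 0.711 in limma). The mean signals of *Slc25a54* and of *Slc25a14*, described next, were both below that of the median probe set. It had an unadjusted p of 0.0591 with array weights and of 0.0548 with the adipocyte covariate, and with no moderation of the variance the p was 0.0788 for *Slc25a54* and 0.064 for *Slc25a14*. That of *Slc25a54* was also above 0.05 without u40Hz mouse 10 (-0.48), without control mouse 1 (-0.44) and without control mouse 6 (-0.65). Among the 3 relatives of the uncoupling proteins, *Slc25a14*, a carrier best known from the brain, had 4.03, 4.82 and 3.98 in u40Hz mice 4, 10 and 11, against 4.76, 5.24 and 5.57 in control mice 1, 6 and 8. The groups overlapped, since u40Hz mouse 10 lay above control mouse 1. The difference was -0.91 (SE 0.30, unadjusted p = 0.0149, adjusted p = 0.695 from limma), with an unadjusted p above 0.05 without u40Hz mouse 11 (-0.765) or control mouse 8 (-0.72). The kidney-type carrier *Slc25a30* was at 0.44 (unadjusted p = 0.0992) and *Slc25a27* at -0.36, and both overlapped between the groups. *Slc25a30* was at 0.63 without control mouse 1 (unadjusted p = 0.0336) and at 0.265 without control mouse 6.

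**Figure D2:**
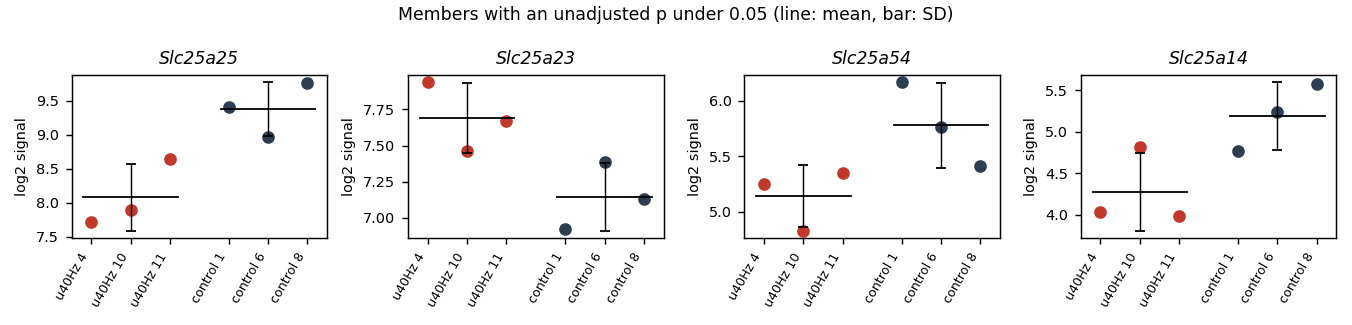
Log2 signal (y axis) of the 4 members with an unadjusted p under 0.05 in each of the 6 mice (x axis, red u40Hz, dark blue control), with group means as lines and SDs as bars. *Slc25a25* is lower in all 3 stimulated mice, with 8.64 as the highest of them and 8.96 as the lowest control value.

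All 3 ADP/ATP exchangers overlapped between the groups. *Slc25a4*, the ADP/ATP exchanger of heart and muscle, had 19.47, 19.48 and 19.54 in u40Hz mice 4, 10 and 11, against 19.67, 19.52 and 19.50 in control mice 1, 6 and 8. These values are close to the upper limit of the scale, 19.93, so a difference upward could not be measured in full. This gave a log2 difference of -0.07 (95% interval -0.47 to 0.33, unadjusted p = 0.712). *Slc25a5*, the exchanger of dividing cells, had 12.30, 11.10 and 11.67 in u40Hz mice 4, 10 and 11, against 11.79, 11.72 and 11.68 in the control mice. The highest and the lowest value were both those of stimulated mice, and the log2 difference was -0.04 (95% interval -0.71 to 0.63). It was -0.345 without u40Hz mouse 4 and 0.255 without u40Hz mouse 10. The testis exchanger *Slc25a31* was at -0.21. Of the pyrimidine nucleotide carriers, *Slc25a33* was at 0.15 and *Slc25a36* at -0.48, with unadjusted p-values of 0.615 and 0.216. *Slc25a33* was at -0.15 without u40Hz mouse 11. *Slc25a36* was at -0.87 without u40Hz mouse 10 (unadjusted p = 0.0148) and at -0.25 without control mouse 8.

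All 6 measured cofactor carriers averaged higher under stimulation, with log2 differences from 0.01 to 0.43, and none had an unadjusted p under 0.05. The shared direction did not hold without u40Hz mouse 4, where the peroxisomal *Slc25a17*, at 0.26 with all mice, was at -0.17. The coenzyme A carrier *Slc25a42* had 9.81, 9.11 and 9.84 in u40Hz mice 4, 10 and 11, against 9.53, 9.16 and 8.77 in control mice 1, 6 and 8, so that the groups overlapped (log2 difference 0.43, 95% interval -0.21 to 1.07, unadjusted p = 0.159). It was 0.67 without u40Hz mouse 10 (unadjusted p = 0.0388) and 0.24 without control mouse 8. The NAD carrier *Slc25a51* was at 0.34, and at 0.18 without u40Hz mouse 4. The S-adenosylmethionine carrier *Slc25a26*, the folate and FAD carrier *Slc25a32* and *Slc25a16* were between 0.01 and 0.04.

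Of 9 carriers of amino acids 5 averaged higher and 4 lower, with a median log2 difference of 0.03 and none with an unadjusted p under 0.05. *Slc25a12*, the aspartate-glutamate exchanger of muscle and brain and a step of the malate-aspartate shuttle, had 17.41, 17.57 and 17.74 in u40Hz mice 4, 10 and 11, against 17.71, 17.65 and 17.58 in control mice 1, 6 and 8. The 6 values lay close together, and the log2 difference was -0.07 (95% interval -0.49 to 0.35, and 0.00833 without u40Hz mouse 4). *Slc25a13*, the exchanger of liver, had 3.44, 3.98 and 3.74 in the u40Hz-stimulation group, against 3.76, 2.54 and 2.88 in the control group, all low signals. The groups differed by 0.66 (unadjusted p = 0.0717), which was 1.01 without control mouse 1 (unadjusted p = 0.00463) and 0.40 without control mouse 6. The glutamate carrier *Slc25a22* was at 0.61 with values of 6.67, 5.00 and 6.30 in u40Hz mice 4, 10 and 11, against 5.69, 5.12 and 5.34 in the control mice, and its log2 difference was 0.27 without u40Hz mouse 4 and 1.10 without u40Hz mouse 10 (unadjusted p = 0.00317). The other glutamate carrier, *Slc25a18*, was at -0.45. *Slc25a44*, the branched-chain amino acid carrier known from brown fat, had 9.42, 8.74 and 8.77 in u40Hz mice 4, 10 and 11, against 8.50, 9.19 and 8.90 in control mice 1, 6 and 8. The difference was 0.11, and -0.11 without u40Hz mouse 4 and -0.07 without control mouse 1. The glycine carrier *Slc25a38* was at -0.02, and the ornithine and basic amino acid carriers *Slc25a15*, *Slc25a2* and *Slc25a29* lay between -0.15 and 0.19.

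The citrate carrier *Slc25a1*, which exports citrate for fatty acid synthesis, had the largest log2 difference of the family, and 1 mouse carried it. Its signals were 15.05, 6.25 and 7.28 in u40Hz mice 4, 10 and 11, against 7.20, 6.31 and 6.34 in control mice 1, 6 and 8. Outside u40Hz mouse 4 the groups lay on top of each other. The mean was 9.53 ± 4.81 in the u40Hz-stimulation group and 6.62 ± 0.51 in the control group (SD, n = 3 each), and the log2 difference was 2.91 (95% interval -1.49 to 7.31, unadjusted p = 0.167, adjusted p = 0.762 from limma). Without u40Hz mouse 4 it was 0.15. Without u40Hz mouse 10 it was 4.55 (unadjusted p = 0.0455). The range over the 6 mice was 8.80, which 0.0315% of all probe sets reached.

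In all, 4 of the 45 members stood out in u40Hz mouse 4. Each lay over 1 on the log2 scale above the highest of the other 5 mice, as did 1.22% of all probe sets. This mouse was singled out with its values known, so the count is not a result about the family. Of the other 3, *Slc25a35* and *Slc25a48* were named after their values were seen, for this height. *Slc25a10* was in the set of muscle carriers chosen by name, which was also drawn up with earlier results of these data known. *Slc25a10*, the dicarboxylate carrier that white fat is rich in, had 8.53, 5.01 and 4.98 in u40Hz mice 4, 10 and 11, against 5.61, 4.95 and 5.61 in control mice 1, 6 and 8. Its log2 difference of 0.78 turned to -0.395 without u40Hz mouse 4. *Slc25a35*, of unsettled substrate, had 7.48, 5.65 and 5.85 in the u40Hz-stimulation group, against 5.77, 5.47 and 5.63 in the control group, with a log2 difference of 0.70, of 0.13 without u40Hz mouse 4 and of 1.04 without u40Hz mouse 10 (unadjusted p = 0.0494). *Slc25a48*, a carrier linked to choline import, had 3.43, 2.04 and 2.19 in the u40Hz-stimulation group, against 2.01, 2.12 and 2.14 in the control group, with log2 differences of 0.46 and, without that mouse, of 0.025. The glutathione carrier *Slc25a39* was highest there too, at 10.80, against 9.54 and 10.22 in the other stimulated mice and 9.55 to 9.84 in the control mice. So was the peroxisomal *Slc25a17*, at 9.69, against 8.12 and 8.65 in the other stimulated mice and 8.46 to 8.73 in the control mice. Without u40Hz mouse 4 the log2 difference of *Slc25a39* was 0.16 in place of 0.47 (0.79 without u40Hz mouse 10, unadjusted p = 0.0152), and that of *Slc25a17* was -0.17 in place of 0.26. In all, 13 members (28.9%) were highest in u40Hz mouse 4, where 21.9% of all probe sets were.

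u40Hz mouse 4 was also the highest mouse for *Ucp1*, *Cidea*, *Elovl3* and *Otop1* of the 6 brown adipocyte markers. The same held for *Adipoq*, *Plin1*, *Cidec*, *Retn*, *Fabp4*, *Pparg* and *Lipe* of the 10 adipocyte markers. It did not hold for the rest of either list. *Cox8b* was lowest in u40Hz mouse 4, at 14.03, and *Cox7a1* was highest in u40Hz mouse 11. *Lep*, *Plin4* and *Car3* were highest in control mice 8, 1 and 6. Some of the carriers above were named for their height in this mouse. The shared height therefore rests on 1 mouse, and a relation between carriers and markers was not tested. *Adipoq* was at 15.16 there, against 6.58 and 7.01 in u40Hz mice 10 and 11, and against 6.96, 6.32 and 9.66 in control mice 1, 6 and 8. In control mouse 8, where *Adipoq* was next highest, *Slc25a1* was at 6.34 and *Ucp1* at 3.44, where the other control mice had 7.20 and 6.31 for *Slc25a1* and 3.49 and 4.16 for *Ucp1*. With the mean of the adipocyte markers as a covariate, which u40Hz mouse 4 dominates, the log2 difference was 0.44 for *Slc25a1*, 0.18 for *Slc25a35*, 0.0659 for *Slc25a48* and 0.21 for *Slc25a39*. It was -0.32 for *Slc25a10* and -0.12 for *Slc25a17*.

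**Figure D3:**
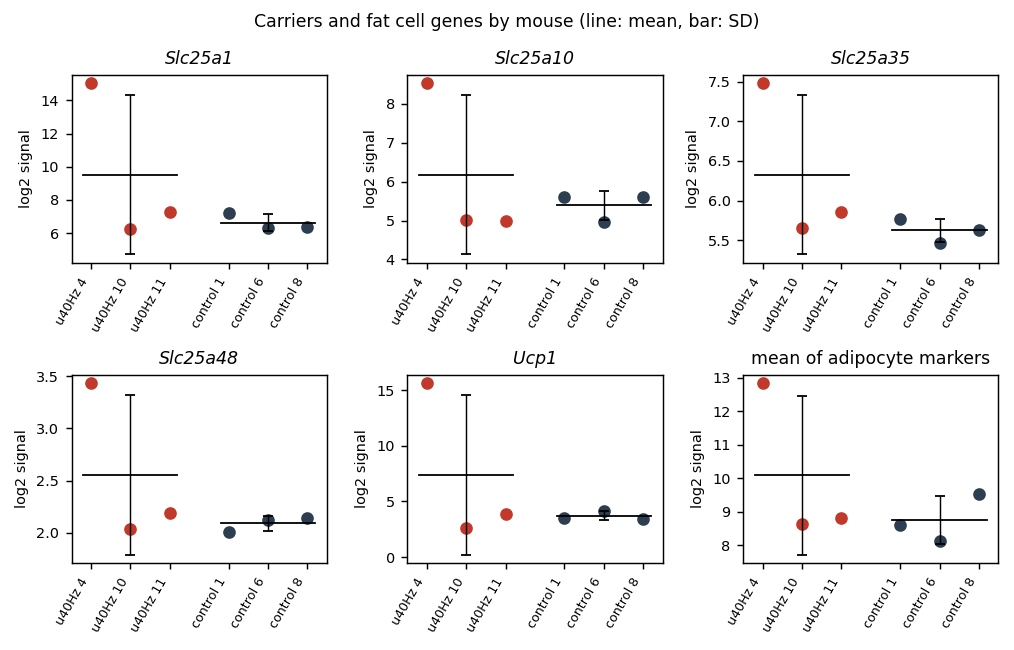
Log2 signal (y axis) of *Slc25a1*, *Slc25a10*, *Slc25a35*, *Slc25a48* and *Ucp1*, and the mean of 10 adipocyte markers, in each mouse (x axis, red u40Hz, dark blue control), with group means as lines and SDs as bars. u40Hz mouse 4 is the highest in every panel, with *Slc25a1* at 15.05 and no other mouse above 7.28.

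The phosphate and oxoglutarate carriers overlapped between the groups, with the same 2 mice high, 1 from each group. *Slc25a3*, which imports phosphate, had 16.71, 16.48 and 17.42 in u40Hz mice 4, 10 and 11, against 17.29, 16.69 and 16.64 in control mice 1, 6 and 8. u40Hz mouse 11 and control mouse 1 were high, and the other 4 were close together. This gave a log2 difference of -0.00333 (95% interval -0.68 to 0.67), and it ran from -0.28 without u40Hz mouse 11 to 0.205 without control mouse 1. *Slc25a11*, the oxoglutarate carrier of the malate-aspartate shuttle, had 15.76, 15.70 and 16.41 in the u40Hz-stimulation group, against 16.29, 15.58 and 15.65 in the control group, with the same mice high. The groups differed by 0.12 (95% interval -0.52 to 0.75), from -0.11 without u40Hz mouse 11 to 0.34 without control mouse 1. In 10 of the 45 members (22.2%) u40Hz mouse 11 and control mouse 1 were the highest 2 mice, where this held for 7.79% of all probe sets and for 9 of 12 slow fibre markers. The 10 members, counted after the values were seen, include *Slc25a3*, *Slc25a4*, *Slc25a11* and *Slc25a12*. For *Slc25a4* and *Slc25a12* the order of the mice rests on small gaps, with ranges over the 6 mice of 0.20 and 0.33. With the slow fibre mean as a covariate *Slc25a11* was at -0.07, *Slc25a3* at -0.17, *Slc25a12* at -0.12 and *Slc25a4* at -0.10. The oxodicarboxylate carrier *Slc25a21*, at low signals, was at -0.65, at -0.23 without u40Hz mouse 4, at -0.26 with the adipocyte covariate and at -1.04 with the slow fibre covariate (unadjusted p = 0.00392).

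**Figure D4:**
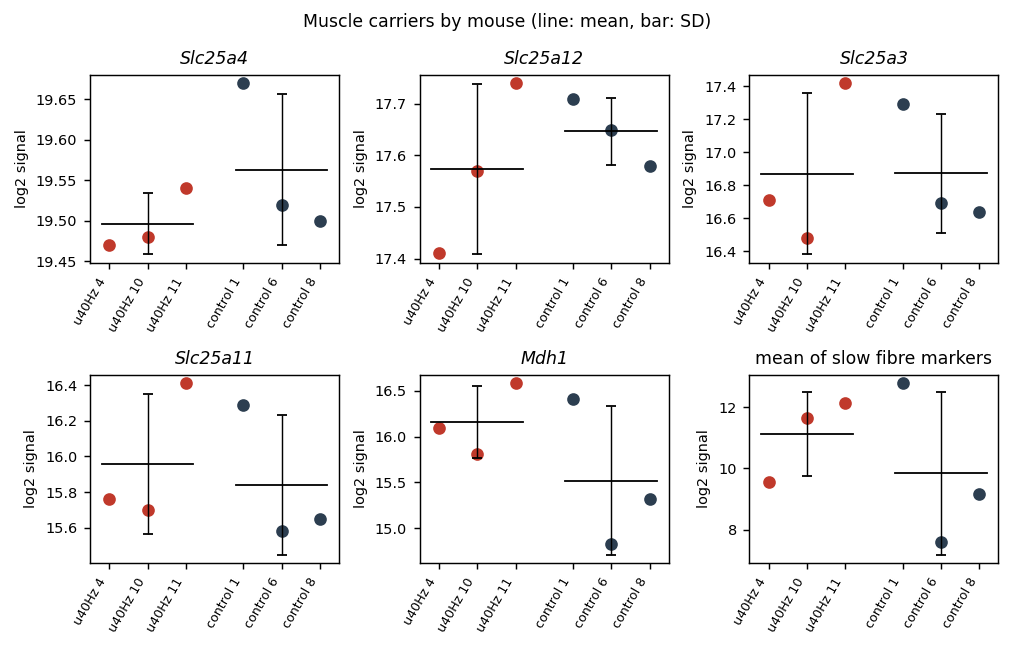
Log2 signal (y axis) of *Slc25a4*, *Slc25a12*, *Slc25a3*, *Slc25a11* and the shuttle enzyme *Mdh1*, and the mean of 12 slow fibre markers, in each mouse (x axis, red u40Hz, dark blue control), with group means as lines and SDs as bars. u40Hz mouse 11 and control mouse 1 are the highest 2 mice in all panels, with *Slc25a3* at 17.42 and 17.29, and the axes do not start at 0.

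Both mitoferrins, which import iron, had a lower mean. *Slc25a37* had 7.76, 7.65 and 7.61 in u40Hz mice 4, 10 and 11, against 7.71, 7.92 and 8.40 in control mice 1, 6 and 8, and the groups overlapped through control mouse 1 (log2 difference -0.34, 95% interval -0.85 to 0.17, unadjusted p = 0.167, and -0.14 without control mouse 8). *Slc25a28* had 7.11, 7.99 and 8.59 in u40Hz mice 4, 10 and 11, against 8.25, 8.38 and 8.16 in control mice 1, 6 and 8. Its log2 difference of -0.37 was 0.03 without u40Hz mouse 4 and -0.71 without u40Hz mouse 11 (unadjusted p = 0.045). Of 9 members of unsettled substrate 6 averaged higher and 3 lower. *Slc25a34* was at 0.47 (unadjusted p = 0.135), at 0.74 without control mouse 1 (unadjusted p = 0.0232) and at 0.28 without u40Hz mouse 11, and *Slc25a46*, a protein of the outer membrane that acts in mitochondrial shape, was at 0.27. *Slc25a43*, *Slc25a45*, *Slc25a47* and *Slc25a53* lay between -0.19 and 0.14, and the glutathione carrier *Slc25a40* was at 0.02.

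Genes that work with the carriers gave few differences. Of 4 measured relatives under other symbols 3 averaged higher and 1 lower, and none had an unadjusted p under 0.05. *Ucp3*, the uncoupling protein of muscle, was at -0.06 (unadjusted p = 0.844), and *Mtch2* of the outer membrane at 0.42 (unadjusted p = 0.117). *Ucp3* was at 0.25 without u40Hz mouse 10. Of 9 other gates for metabolites 4 averaged higher and 5 lower, and 2 had an unadjusted p under 0.05, beside 7.01% of all probe sets. *Sfxn4*, a sideroflexin needed for complex I assembly, had 7.03, 6.67 and 7.42 in u40Hz mice 4, 10 and 11, against 6.14, 6.31 and 6.17 in control mice 1, 6 and 8. The groups did not overlap, and the log2 difference was 0.83 (SE 0.23, unadjusted p = 0.00598, adjusted p = 0.635 from limma). The unadjusted p stayed under 0.05 whichever mouse was left out. *Sfxn2* had low signals and a log2 difference of -0.51 (unadjusted p = 0.0393), which was under 0.05 in 2 of the 6 fits without a mouse and was -0.35 without control mouse 8. The serine transporter *Sfxn1* was at 9.53 in u40Hz mouse 4, against 6.78 in each of the other stimulated mice and 5.81 to 6.97 in the control mice. The pyruvate carrier subunit *Mpc1* was at 0.02 (95% interval up to 0.62), and at 0.21 without control mouse 1.

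Of 10 genes that import carriers into the inner membrane 4 averaged higher and 6 lower, with none at an unadjusted p under 0.05. *Timm29*, a subunit of the TIM22 complex that inserts carriers, and *Timm13*, a small chaperone of the intermembrane space, did not overlap between the groups. Both were lower, 2 of the 10 genes, where 6.05% of all probe sets were lower without overlap. The log2 differences were -0.49 for *Timm29* (unadjusted p = 0.075) and -0.33 for *Timm13* (unadjusted p = 0.139). Of 6 enzymes of the malate-aspartate and glycerophosphate shuttles 5 averaged higher and 1 lower. *Mdh1*, the cytosolic malate dehydrogenase, had 16.09, 15.81 and 16.58 in u40Hz mice 4, 10 and 11, against 16.41, 14.83 and 15.32 in control mice 1, 6 and 8, a log2 difference of 0.64 (unadjusted p = 0.142). Control mouse 1 lay above u40Hz mice 4 and 10, and control mouse 6 was lowest. Several marker lists differed in direction between the groups. All 6 endothelial markers averaged higher under stimulation (1 without overlap, *Kdr*, beside 6.4% of all probe sets). So did all 12 slow fibre markers (none without overlap). Both list means were highest in control mouse 1 (10.07 and 12.77) and lowest in control mouse 6 (9.14 and 7.60). Control mouse 6 was lowest for 4 of 6 endothelial and 10 of 12 slow fibre markers. Lower without overlap were 3 of 6 muscle markers and 3 of 12 fast fibre markers, beside 6.05% of all probe sets. Their log2 differences ran from -0.53 to -0.24. In the same 2 lists *Myh2* (1.40), *Mb* (0.71) and *Myh1* (0.22) averaged higher, with overlap. *Acta1*, *Myh4*, *Myl1* and *Atp2a1* were at the upper limit of the scale in every mouse, so no difference could be seen in them. All 6 measured fibroblast and tendon markers averaged lower (1 without overlap, *Tnmd*, beside the same 6.05%). *Tnmd*, a tendon protein, was at -1.55 (unadjusted p = 0.00361, with an unadjusted p under 0.05 whichever mouse was left out). The tendon factor *Scx* was at -0.82 (unadjusted p = 0.0205). Its unadjusted p was above 0.05 without u40Hz mouse 4 (-0.65), control mouse 6 (-0.75) or control mouse 8 (-0.62). *Mybpc2* of fast muscle was at -0.53 (unadjusted p = 0.0274), with an unadjusted p above 0.05 without u40Hz mouse 10 or 11 or without control mouse 6 or 8. The part of tendon and endothelium in the carriers' values was not tested.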

How the data were processed

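Total RNA of the triceps of 6 mice was labelled and hybridized to Affymetrix Mouse Clariom S arrays. Log2 signals of 22206 probe sets were deposited, which the authors made with the Transcriptome Analysis Console, named in the submitters' processing notes. The sources used here do not state its summary method or genome build. These values were used unchanged. Gene symbols came from the platform annotation (19572 probe sets), and the 45 members were all found in the RefSeq table of GRCm38.p6, used for names, neighbours and promoters. No 2 arrays shared over 1.27% of their values. The groups were compared with limma 3.58.1 in R 4.3.3 (lmFit and eBayes, two-sided, Benjamini-Hochberg over all probe sets), and the fit was tested on simulated data. Other moderations, array weights, normalizations, a filter on dim probe sets, covariates and leaving out each mouse were tried. The members, classes and gene lists were chosen with earlier results of these data known. Values are given for members with an unadjusted p under 0.05 or with no overlap and a difference over 0.5, and for a set of muscle carriers chosen by name. *Slc25a17*, *Slc25a21*, *Slc25a22*, *Slc25a35*, *Slc25a36*, *Slc25a39*, *Slc25a48*, *Slc25a51*, *Sfxn1*, *Mtch2*, *Mdh1*, *Timm13* and *Timm29* were added after their values were seen. No label gives a batch, so none was examined. Precision is limited by having 3 arrays a group. The p-values set a group difference against the spread between these mice, which limma moderates by that of all probe sets.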

Additional observations from a re-analysis of the deposited data

How the results depend on the processing

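No paired analysis was possible because the groups share no replicate number. With no probe set past an adjusted p under 0.05 in the main analysis or in any alternative, calls rest on unadjusted p-values. The median log2 difference of the family ran from -0.08 (without u40Hz mouse 11) to 0.095 (without u40Hz mouse 10) when each mouse was left out, the count of members with an unadjusted p under 0.05 from 2 to 9, and that of all probe sets from 1007 (without control mouse 6) to 1838 (without u40Hz mouse 10). The family count was 2 with no moderation of the variance (1417 of all probe sets), 2 with the adipocyte mean as a covariate (1377), 5 with the slow fibre mean as a covariate (1406), and 2 of 31 without the dim probe sets (906 of 11104). *Slc25a25* kept its direction and an unadjusted p under 0.05 under every alternative. The direction turned in some fits, for *Slc25a10* (0.78) and *Ucp1* (3.68) as well as for differences under 0.40 in size, and the cause was not tested. *Slc25a3* was at 0.12 with array weights and, with the adipocyte covariate, at 0.0745, *Slc25a12* at 0.00527, *Slc25a10* at -0.32, *Slc25a44* at -0.0726 and *Slc25a17* at -0.12. With the slow fibre covariate *Slc25a5* was at 0.0356, *Slc25a11* at -0.0727 and *Mpc1* at -0.17, while *Slc25a13* was at 0.38, *Slc25a34* at 0.28 and *Slc25a44* at 0.32. The adipocyte covariate also moved *Slc25a28* to -0.00341, *Slc25a5* to -0.31 and *Slc25a22* to 0.28. Leaving out each mouse gave -0.28 to 0.205 for *Slc25a3*, -0.345 to 0.255 for *Slc25a5*, -0.395 to 1.38 for *Slc25a10*, -0.11 to 0.34 for *Slc25a11*, -0.16 to 0.00833 for *Slc25a12*, -0.17 to 0.61 for *Slc25a17*, -0.71 to 0.0267 for *Slc25a28*, -0.15 to 0.32 for *Slc25a33*, -0.11 to 0.28 for *Slc25a44*, -0.44 to 6.07 for *Ucp1*, -0.22 to 0.25 for *Ucp3* and -0.185 to 0.21 for *Mpc1*. Quantile normalization and median centring changed no direction or call of the 35 genes followed. The mean of several probe sets was not run, since each member has 1.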
